A study of Bos taurus with 6 samples.

Results

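The genes described here encode a part of the enzymes and subunits of the citrate cycle other than succinate dehydrogenase. They are CS, IDH2, IDH3A, OGDH, DLST, SUCLG1, SUCLA2, FH and MDH2, which were taken by symbol from the authors' expression table in the order of the cycle. All 9 were found among the 17663 genes of the table, and all 9 had enough counts to be tested.

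The citrate cycle runs in the mitochondrial matrix. It joins acetyl-CoA to oxaloacetate, releases the carbon as CO2 and passes the electrons on as NADH and FADH2, which feed oxidative phosphorylation. Its intermediates also leave for the synthesis of lipids, amino acids and heme, so that growing cells such as cultured fibroblasts draw on it for building material as well as for ATP.

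The study asked how the fat-1 gene of Caenorhabditis elegans, whose product turns n-6 PUFA into n-3 PUFA, bears on energy metabolism in bovine fetal fibroblasts (bEFs). The FT group consisted of 3 cattle fetuses that carried exogenous fat-1, and the WT group of 3 wild-type fetuses of Luxi cattle. All fetuses were 50 to 60 days of age, and the cells were grown in primary culture from fetal tissue. Poly(A) RNA of each fetus gave 1 library, named FT_1 to FT_3 or WT_1 to WT_3, so that n = 3 in each group. The breed of the FT fetuses and the promoter of the transgene are not given in the sources used here.

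Libraries FT_1 to FT_3 held 63366834, 48167642 and 54204446 counts, and libraries WT_1 to WT_3 held 69777641, 51310741 and 54271927. The members were well covered at this depth. The lowest count of any member was 2053 (IDH2 in FT_2) and the highest was 23578 (IDH3A in WT_1). The 10 genes with the highest counts took 15.2 to 15.4% of all counts in FT cells and 9.86 to 10.5% in WT cells.

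FT_1 stood apart from the other FT libraries. Relative spread of gene levels beyond counting noise (the biological coefficient of variation) was 8.23% between FT_2 and FT_3 and 9.99 to 13.4% between WT libraries. Between FT_1 and the other FT libraries it was 56.9 and 57.6%. Where leaving FT_1 out changed how many genes of a list edgeR called, both numbers are given. Its deviation reached some members and not others. On the log2 scale FT_1 differed from the mean of FT_2 and FT_3 by -0.60 for CS, -0.50 for OGDH and -0.27 for IDH3A. The difference was -0.14 for SUCLA2, -0.13 for DLST and -0.06 for IDH2, and 0.07, -0.02 and 0.06 for SUCLG1, FH and MDH2, where the median size over all tested genes was 0.34.

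The fibroblast label was checked against marker genes. On the FPKM scale, which corrects fragment counts for gene length and library total, the 10 fibroblast markers (collagens, VIM, PDGFRA, DCN and others) summed to 6988, 17023 and 16754 in FT_1 to FT_3 and to 17782, 17245 and 17326 in WT_1 to WT_3. In edgeR 1 of the 10 was called, where 18.9% of all genes tested were lower and 20.1% higher at an adjusted p under 0.05. This was PDGFRA, which was higher in FT cells (log2 fold change 1.06, adjusted p = 0.0053). VIM, the most abundant of the 10 in WT cells, was lower in every FT library (1244, 3850 and 4171 against 7891, 8178 and 7312). Its log2 fold change was -1.17, with an adjusted p of 0.0902 in edgeR, 0.0462 in limma and 0.0128 in DESeq2. Without FT_1 edgeR called VIM lower and 5 markers higher (COL1A1, PDGFRA, PDGFRB, DCN and LUM). In that fit 31.5% of all genes were lower and 30.6% higher. The 5 epithelial markers summed to 138, 8.47 and 9.2 in FT_1 to FT_3, and to 10.1, 7.83 and 13.9 in WT cells. KRT8 (84.1, 0.95 and 0.61 in FT_1 to FT_3) and KRT18 (11.2, 0.34 and 0.18) were above 0 in every FT library and at 0 in every WT library. CDH1, the largest part of the sum in the libraries other than FT_1, was 36.3, 7.11 and 8.41 in FT_1 to FT_3 and 10.0, 7.83 and 13.9 in WT cells. edgeR gave it a log2 fold change of 0.85, or -0.28 without FT_1, and called it in neither fit. Of the 3 epithelial markers tested in edgeR 0 were called at an adjusted p under 0.05 and both keratin genes were higher at an unadjusted p under 0.05. Without FT_1 edgeR called both higher (adjusted p = 3.67e-05 for KRT8 and 0.00109 for KRT18). With all libraries limma called 0, and DESeq2 also 0, but gave neither keratin gene a p-value. EPCAM, which defines epithelial cells, was 0.57 in FT_1 and 0 in the other libraries.

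Other cell types were also looked for. Over all genes tested edgeR called 18.9% lower and 20.1% higher, or 31.5% and 30.6% without FT_1. The mesothelial list summed to 199.7, 45.0 and 46.3 in FT_1 to FT_3 and to 2.32, 3.48 and 3.34 in WT cells, with 1 of 2 tested markers called (MSLN, higher in FT cells). The transcription factor gene WT1, another mesothelial marker, was at 0 in every FT library and at 0.04, 0.05 and 0.03 in WT cells. The adipocyte list summed to 2.88, 14.0 and 15.3 in FT cells and to 150.2, 135 and 153 in WT cells, where FABP4 alone had 140.3, 128 and 143. FABP4 was called lower, 1 of the 3 markers tested. PLIN1 (1.31 to 1.49 against 1.23 to 1.27) had all FT values above the WT values without being called, and LPL overlapped. The median log2 fold change of the list was -0.23, and its sign turned to give 0.23 without FT_1. ADIPOQ, which defines fat cells, was at 0 in FT cells and at 0.28, 0 and 0.07 in WT_1 to WT_3, and was not tested. Sums over the endothelial, the blood and immune and the skeletal muscle lists were at most 1.52, 7.87 and 5.77. Of the 3 endothelial markers tested edgeR called 0 at an adjusted or unadjusted p under 0.05, and DESeq2 called 0, while limma tested 0 of them after its filter. Without FT_1 edgeR called PECAM1 lower (adjusted p = 4.51e-04). In edgeR 1 of 2 blood and immune markers (CD68, lower) and 1 of 2 muscle markers (DES, higher) were called, and without FT_1 CD14 and MYF5 were lower as well.

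Markers of dividing cells were lower in FT cells. The list summed to 58.7, 93.4 and 92.5 in FT_1 to FT_3 and to 258, 312 and 251 in WT_1 to WT_3. In edgeR 6 of its 7 genes were down-regulated, where 18.9% of all genes tested were lower. CCNB1 was the most abundant of the list in WT cells. PCNA was the most abundant in FT_1 (17.14, with TOP2A at 11.28). TOP2A was so in FT_2 and FT_3 (21.74 and 23.26, with PCNA at 21.05 and 20.07). The log2 fold change was -2.65 for CCNB1, -1.63 for CDK1 and -1.51 for BUB1, and the median of the list was -1.50. Without FT_1, 7 of 7 were lower, where 31.5% of all genes were lower. The part of cell division, or of the other marker lists, in the values of the citrate cycle genes was not tested.

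Some of the cycle genes were lower in FT cells and others were not called. DLST, SUCLG1, SUCLA2, FH and MDH2 were down-regulated, which makes 5 of the 9 members, where 18.9% of the 13482 genes tested were lower in FT cells at a Benjamini-Hochberg adjusted p under 0.05 (edgeR quasi-likelihood test on the raw counts). In edgeR 0 members were up-regulated, against 20.1% of all genes, and the number was also 0 at an unadjusted p under 0.05 and with DESeq2 or limma. In these bulk cultures, fewer cells of a kind and less RNA per cell cannot be told apart. The median log2 fold change of the members was -0.44, beside 0.03 over all genes tested. CS, IDH2, IDH3A and OGDH did not pass this test.

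At the threshold of the study's methods (a log2 fold change below -1 with an unadjusted p below 0.05) 2 members were lower, SUCLG1 and FH, against 8.96% of all genes. The FPKM values of every FT library lay below those of every WT library for 7 of the 9 members, where 36.9% of all genes showed this. After scaling of the counts between libraries the number was again 7, where 29.4% did. CS and OGDH were the exceptions, with overlapping groups on both scales. The FPKM values of the members summed to 512, 553 and 558 in FT_1 to FT_3 and to 839, 920 and 804 in WT_1 to WT_3. These sums did not overlap between the groups. The FPKM sums over all genes did not overlap either, at 407533, 396565 and 390892 in FT_1 to FT_3 and 456349, 467653 and 453721 in WT_1 to WT_3.

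**Figure D1:**
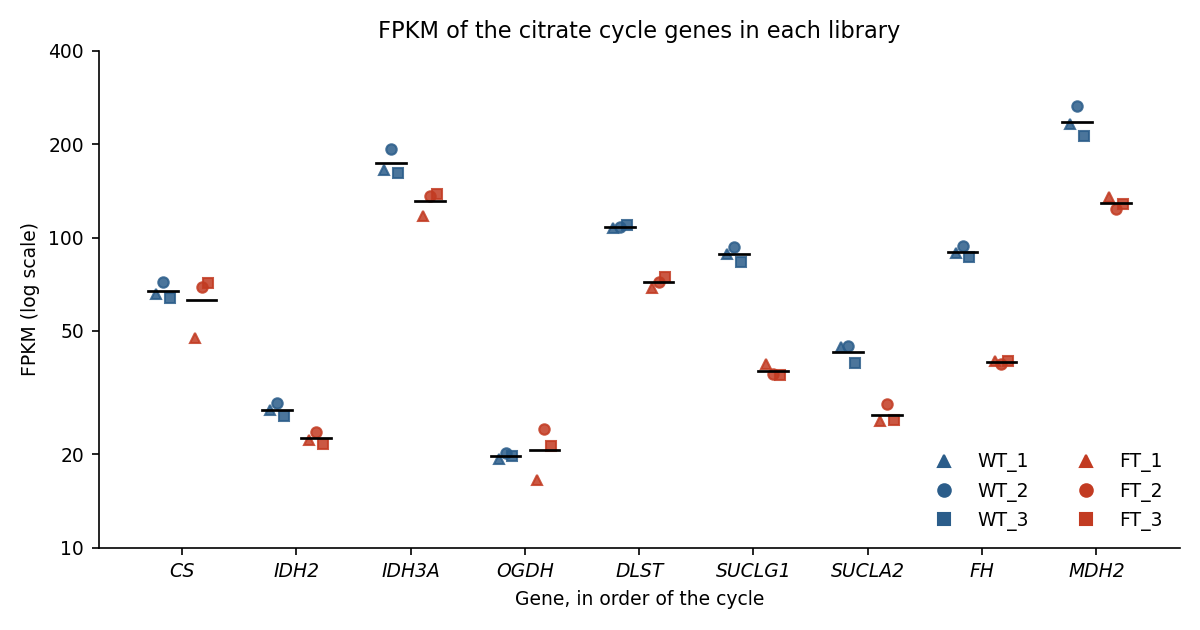
FPKM (log scale) of the 9 citrate cycle genes in each library, in the order of the cycle, with FT libraries in red, WT libraries in blue, 1 symbol per replicate number and black lines at the group means. The FT points lie below the WT points for 7 genes and overlap them for CS and OGDH, where FT_1 is the lowest library.

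Without FT_1 the same 5 members were down-regulated, where 31.5% of the 13765 genes tested were lower in FT cells. In addition CS and OGDH were then up-regulated, 2 of the 9 members, against 30.6% of all genes. limma on the FPKM values called 0 members higher without FT_1, with a log2 fold change of 0.07 for CS (adjusted p = 0.408) and 0.19 for OGDH (adjusted p = 0.0518), and 7 lower. In that fit 24.3% of 12031 genes were higher and 42.5% lower. In edgeR the median log2 fold change of the members was -0.40 without FT_1.

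How the libraries were scaled mattered for IDH2 and IDH3A. edgeR called 2714 genes higher and 2547 lower in FT cells. With library totals as the only scaling the split was 2049 higher and 3394 lower. FPKM values are likewise scaled between libraries by library total only. On log2(FPKM + 1) limma called 1837 higher and 3573 lower (29.2%) among 12247 genes. The median log2 fold change of all genes was then -0.12 in both fits. These fits called 7 members lower, the same 5 together with IDH2 and IDH3A. Fold changes below come from edgeR on the counts unless limma is named.

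Citrate synthase (CS), which condenses acetyl-CoA with oxaloacetate, opens the cycle. The gene (ENSBTAG00000004371) is on chromosome 5 at 57042171 to 57065001, plus strand. Positions are those of the authors' table. Its identifiers are bovine, whereas the submitters' processing notes name a mouse build, so the build of the positions is not settled here. CS had FPKM values of 47.5, 69.4 and 71.3 in FT_1 to FT_3, and of 65.7, 72.1 and 63.8 in WT_1 to WT_3. FT_1 was the lowest library, FT_2 and FT_3 lay within the WT values, and the groups overlapped. The log2 fold change was 0.06 (standard error 0.18, 95% confidence interval -0.37 to 0.50, adjusted p = 0.801).

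The sign of the CS log2 fold change depended on single libraries and on the scaling. It was 0.24 without FT_1 (adjusted p = 0.014), -0.02 without FT_2 and -0.05 without FT_3, and -0.12 with limma on the FPKM values, which is 0.01 relative to the median of all genes in that fit.

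Isocitrate is oxidised in the mitochondrion by the NADP-dependent enzyme IDH2 and by the NAD-dependent IDH3, whose catalytic subunit is IDH3A. IDH2 (ENSBTAG00000014093, chromosome 21, 21478221 to 21494539, minus strand) had an FPKM of 22.3, 23.6 and 21.6 in FT_1 to FT_3 and of 27.8, 29.2 and 26.5 in WT_1 to WT_3. All FT libraries were below all WT libraries, by a margin that was small beside that of SUCLG1 and FH. The log2 fold change was -0.15 (standard error 0.08, 95% interval -0.33 to 0.04, adjusted p = 0.183). IDH3A (ENSBTAG00000006227, chromosome 21, 30538294 to 30554581, plus strand) had an FPKM of 117, 137 and 139 in FT cells and of 165, 194 and 162 in WT cells. It was among the most abundant transcripts of the cycle in both groups, and its groups did not overlap. Its log2 fold change was -0.25 (standard error 0.12, 95% interval -0.54 to 0.05, adjusted p = 0.154).

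Both isocitrate dehydrogenase genes passed the test where library totals were the only scaling between libraries. With limma the log2 fold change was -0.29 for IDH2 (adjusted p = 0.0208) and -0.40 for IDH3A (adjusted p = 0.0294), or -0.17 and -0.28 relative to the median of all genes. With library totals alone the adjusted p from edgeR was 0.0271 and 0.0359. The other alternatives run on all 6 libraries with counts, or with FPKM values after median-ratio scaling, did not call either gene. Exact permutation tests of the FPKM values gave p = 0.10 for each, the smallest p that 3 libraries against 3 allow (two-sided), and the same p for the other 5 members without overlap.

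Compared within a library, IDH3A was set against IDH3B, which encodes another subunit of the enzyme. The ratio of IDH3A to IDH3B was 2.86, 4.50 and 4.59 in FT_1 to FT_3, against 2.84, 2.96 and 2.85 in WT cells. FT_1 lay within the WT values and the other FT libraries above them, so the groups overlapped. The ratio of IDH2 to IDH1, which encodes the cytosolic NADP-dependent enzyme, was 1.48 in FT_1 but 0.540 and 0.514 in FT_2 and FT_3, and 0.486, 0.523 and 0.475 in WT cells. The mean log2 difference of 0.59 between the groups was 0.09 without FT_1. IDH2 relative to IDH3A gave a log2 difference of 0.10, with overlapping groups, and of 0.03 without FT_1, 0.06 without WT_2 and 0.17 without FT_3.

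The 2-oxoglutarate dehydrogenase complex carries out the next oxidation. OGDH encodes its first component, which decarboxylates 2-oxoglutarate, and DLST encodes the succinyltransferase that forms its core and passes the succinyl group to CoA. OGDH (ENSBTAG00000006029, chromosome 4, 76758582 to 76844759, minus strand) had an FPKM of 16.5, 24.2 and 21.3 in FT_1 to FT_3 and of 19.3, 20.3 and 19.8 in WT_1 to WT_3. FT_1 was below and FT_2 and FT_3 above every WT library. The log2 fold change was 0.23 (standard error 0.15, 95% interval -0.15 to 0.60, adjusted p = 0.285). Without FT_1 it was 0.37 (adjusted p = 0.00125). It was 0.09 without FT_2, 0.07 with library totals only, 0.05 with limma on the FPKM values, and 0.01 once a smooth trend on gene length was removed (adjusted p = 0.963).

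DLST was down-regulated. The gene (ENSBTAG00000006463, chromosome 10, 86137703 to 86156692, plus strand) had an FPKM of 68.6, 71.9 and 74.7 in FT cells and of 107, 108 and 110.0 in WT cells. The values within each group were close and the groups were far from overlapping. The scaled counts of DLST in FT cells were 73.9% of those in WT cells. This is a log2 fold change of -0.44 (standard error 0.08, 95% interval -0.63 to -0.24, adjusted p = 0.0081). Without FT_1 it was -0.40.

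The balance between the components of the complex was read from FPKM ratios. OGDH stood at 0.241, 0.337 and 0.285 of DLST in FT_1 to FT_3, against 0.180, 0.187 and 0.180 in WT_1 to WT_3. Every FT library had more OGDH transcript per DLST transcript than every WT library. The log2 difference was 0.64 (exact permutation p = 0.10, 0.14 after Benjamini-Hochberg adjustment over the 11 ratios reported). Against DLD, the dihydrolipoyl dehydrogenase that completes the complex, the log2 difference was 1.19 for OGDH and 0.55 for DLST, each without overlap and with the same p. Among all pairs of tested genes with a mean FPKM of 1 or more and no FPKM of 0, 59.0% of the ratios did not overlap. Such a ratio shows unequal change, not which gene changed.

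The study's own RT-qPCR primers cover 4 of the members. The pairs for OGDH and IDH3A are shown because their antisense primers resemble each other, with capitals at the bases that are identical in an ungapped alignment (17 of the 20 bases compared). Among all other primers of the study, the best match to the OGDH antisense primer had 10 of 20 identical bases, which was also the best match of any primer to the OGDH sense primer.
OGDH sense: cccatcccagtttgatgttc
OGDH antisense: ACCGAtTCaAAGATgGCAAC
IDH3A sense: gcaaatgtccgaccatgtgtctc
IDH3A antisense: gaACCGAcTCgAAGATtGCAACtc
Which transcripts these primers amplify was not tested, and the sequencing values of OGDH and IDH3A do not rest on them.

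Succinate-CoA ligase turns succinyl-CoA into succinate and makes a nucleoside triphosphate. SUCLG1 encodes the alpha subunit, which is shared by the ADP-forming enzyme with SUCLA2 as its beta subunit and the GDP-forming enzyme with SUCLG2. SUCLG1 (ENSBTAG00000006075, chromosome 11, 50516577 to 50551425, plus strand) had an FPKM of 39.1, 36.2 and 36.2 in FT_1 to FT_3 and of 88.5, 93.1 and 83.5 in WT_1 to WT_3. Every FT value was under every WT value, and FT_1 was close to the other FT libraries. Scaled counts in FT cells were 46.9% of those in WT cells. The log2 fold change of -1.09 (standard error 0.08, 95% interval -1.28 to -0.91, adjusted p = 6.88e-04) had the largest size among the members, and it was -1.12 without FT_1. Of all genes tested, 10.1% had a lower log2 fold change than SUCLG1.

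SUCLA2, the ADP-forming beta subunit, was down-regulated to a lesser degree. SUCLA2 (ENSBTAG00000006759, chromosome 12, 17809328 to 17853938, minus strand) had an FPKM of 25.6, 29.1 and 25.8 in FT cells and of 44.4, 44.6 and 39.3 in WT cells. The groups did not overlap. The log2 fold change was -0.51 (standard error 0.09, 95% interval -0.74 to -0.28, adjusted p = 0.0084), or -0.47 without FT_1. SUCLG2, the GDP-forming beta subunit, fell by 0.93 on the log2 scale (adjusted p = 8.09e-04).

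The subunits of this ligase also differed in their ratios. There were 1.53, 1.24 and 1.40 SUCLG1 per SUCLA2 on the FPKM scale in FT_1 to FT_3, against 1.99, 2.09 and 2.12 in WT_1 to WT_3. Every FT library had less SUCLG1 per SUCLA2 than every WT library, a log2 difference of -0.58. Relative to SUCLG2, SUCLG1 differed by -0.16 and SUCLA2 by 0.42. None of these 3 ratios overlapped between the groups (exact permutation p = 0.10 each, adjusted 0.14), where 59.0% of all gene pairs compared did not overlap.

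Fumarase (FH) adds water to fumarate to give malate. FH (ENSBTAG00000021688, chromosome 16, 35260924 to 35288027, plus strand) had an FPKM of 39.9, 39.1 and 39.9 in FT_1 to FT_3 and of 89.4, 93.9 and 86.8 in WT_1 to WT_3. The FT libraries were almost level with each other and far below the WT libraries. Scaled counts in FT cells were 49.1% of those in WT cells, and the log2 fold change was -1.03 (standard error 0.07, 95% interval -1.20 to -0.85, adjusted p = 6.88e-04). Its place past the methods' fold threshold was narrow, since the log2 fold change was -0.99 after removal of a smooth trend on gene length and -0.998 without WT_2, in both cases just short of it. It was -1.02 without FT_1, and 11.1% of all genes tested had a lower log2 fold change than FH with all libraries.

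Malate dehydrogenase 2 (MDH2) closes the cycle by oxidising malate to oxaloacetate, and works with the cytosolic enzyme MDH1 in the malate-aspartate shuttle. MDH2 (ENSBTAG00000009462, chromosome 25, 34254236 to 34266939, plus strand) had an FPKM of 135, 123 and 128 in FT_1 to FT_3 and of 232, 265 and 212 in WT_1 to WT_3. The groups were well separated, with the wider spread in WT cells. Scaled counts in FT cells were 60.8% of those in WT cells, which corresponds to a log2 fold change of -0.72 (standard error 0.10, 95% interval -0.97 to -0.46, adjusted p = 0.00378), or -0.74 without FT_1. With the trend on gene length removed the log2 fold change was -0.56.

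Some reads counted for MDH2 could belong to a neighbour. MDH2 overlaps STYXL1 on the opposite strand by 507 bases, and whether the authors' counting used strand is not given in the sources used here. STYXL1 had a mean FPKM of 1.47, low beside that of MDH2, and was lower in FT cells as well (log2 fold change -2.37, adjusted p = 0.0152). MDH2 relative to MDH1 was 5.63, 4.59 and 5.05 in FT_1 to FT_3 and 2.96, 2.80 and 2.87 in WT_1 to WT_3. Every FT library had more transcript of the mitochondrial enzyme per transcript of the cytosolic enzyme, a log2 difference of 0.82 (exact permutation p = 0.10, adjusted 0.14). Of all gene pairs compared, 59.0% likewise did not overlap between the groups.

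IDH2 and MDH2 were also the 2 members with primers for methylated DNA immunoprecipitation (MeDIP) at predicted CpG islands of their promoters. The pair for IDH2 is shown with the CpG sites in capitals, followed by the RT-qPCR primers of both genes.
IDH2 MeDIP sense: ttcCGggCGcattaaaccagtg
IDH2 MeDIP antisense: CGCGtaggaggatcCGagagc
IDH2 sense: agatggacggcgatgagatgac
IDH2 antisense: atcattggtctggtcacggttc
MDH2 sense: aacaatgctaaagtagccgtgc
MDH2 antisense: atctcgggtcatacctggtttt
The MeDIP pair of IDH2 holds 2 CpG sites in the sense primer and 3 in the antisense primer. For MDH2 the study's list gives the same sequence as sense and antisense MeDIP primer, as it does for the RT-qPCR pair of RPLP0, and these are not shown. Methylation was not analysed here.

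**Figure D2:**
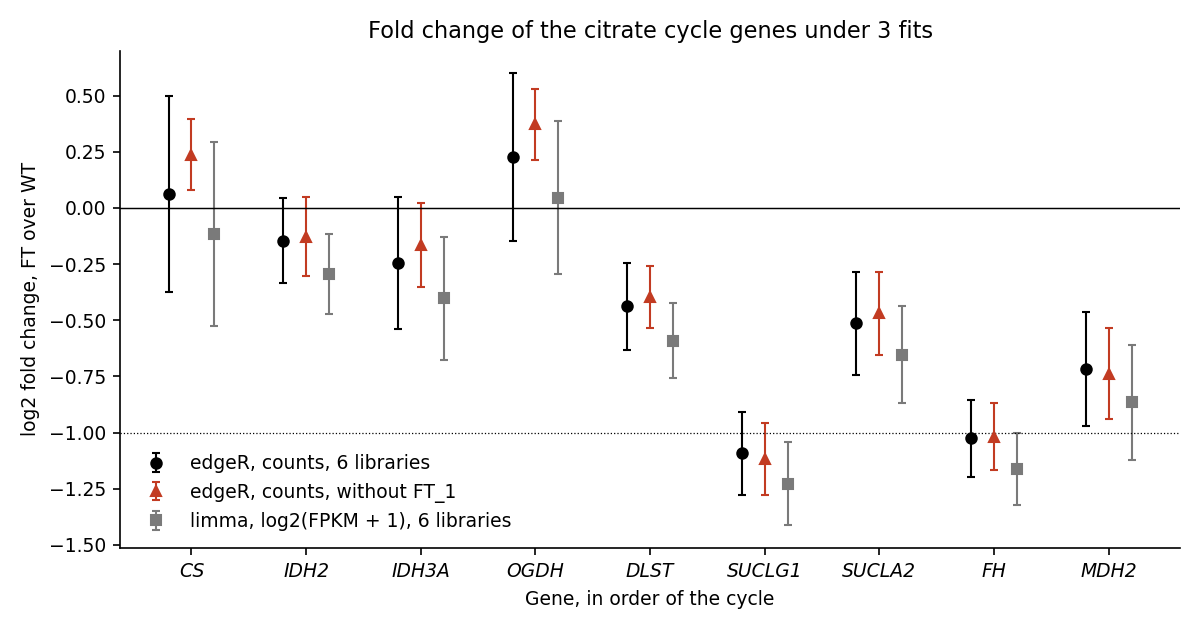
Log2 fold change of FT over WT cells for the 9 genes, with 95% intervals, from edgeR on counts with all 6 libraries (circles), edgeR without FT_1 (triangles) and limma on log2(FPKM + 1) (squares). DLST, SUCLG1, SUCLA2, FH and MDH2 lie below 0 with their intervals in all 3 fits, IDH2 and IDH3A do so in limma, and the dotted line marks -1.

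Of the 11 ratios, 8 did not overlap between FT and WT cells and 3 did. Among all 62334195 pairs of the 11166 genes that were tested, had a mean FPKM of 1 or more and were above 0 in each library, 59.0% of the ratios did not overlap. In 5 of the 8 pairs the FT libraries were higher and in 3 lower. FH was set against SDHB, the iron-sulfur subunit of succinate dehydrogenase, which makes the fumarate that FH uses. Their ratio was 0.603, 0.418 and 0.428 in FT_1 to FT_3 and 0.836, 0.815 and 0.821 in WT_1 to WT_3, a log2 difference of -0.79. SDHB does not stand for the whole of succinate dehydrogenase here. It was not called (log2 fold change -0.21), while SDHA (-0.98), SDHC (-0.81) and SDHD (-1.13) were lower, beside -1.03 for FH. For the ratio of FH to SDHB, FT_1 was the FT library nearest to WT cells, which did not hold for every pair.

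**Figure D3:**
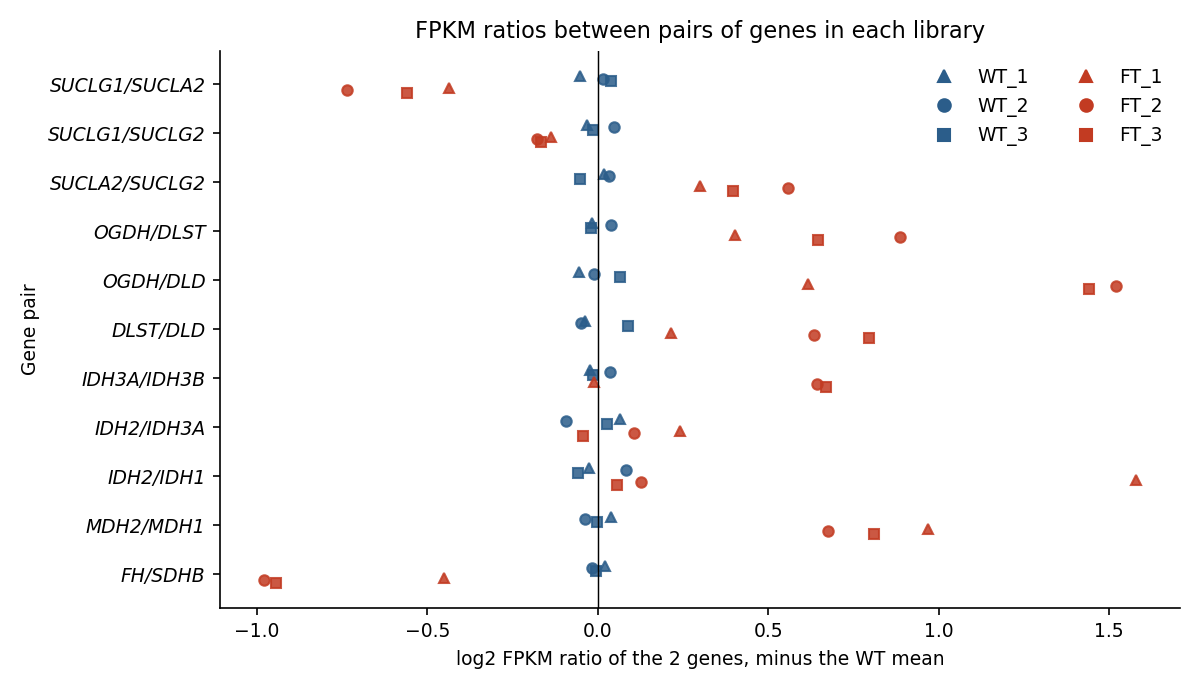
Log2 FPKM ratio of 2 genes in each library, minus the mean of the WT libraries, for the 11 pairs reported, with FT libraries in red and WT libraries in blue. The WT points stay near 0, the FT points lie to 1 side of them for 8 pairs, and FT_1 is apart from FT_2 and FT_3 for several pairs, among them IDH2/IDH1, OGDH/DLD, IDH3A/IDH3B and FH/SDHB.

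The order of the transcript levels also differed between the groups. In WT cells MDH2 had the highest FPKM (236 ± 26.4, SD, n = 3), then IDH3A (173 ± 17.6), DLST (109 ± 1.45), FH (90.0 ± 3.56), SUCLG1 (88.4 ± 4.84), CS (67.2 ± 4.33), SUCLA2 (42.8 ± 2.99), IDH2 (27.8 ± 1.35) and OGDH (19.8 ± 0.490). Only FH and SUCLG1 overlapped among the neighbours in this order. In FT cells IDH3A (131 ± 11.6) and MDH2 (129 ± 5.66) overlapped at the top, and DLST (71.7 ± 3.05) overlapped with CS (62.8 ± 13.2). CS thereby stood above FH (39.6 ± 0.480) and SUCLG1 (37.1 ± 1.67), which overlapped with each other, followed by SUCLA2 (26.8 ± 1.99). IDH2 (22.5 ± 1.01) and OGDH (20.7 ± 3.87) came last and overlapped.

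Gene length went along with the fold changes of the members. Relative length, obtained as count over FPKM and set to 1 at the median gene, ran from 0.517 for MDH2 and 0.667 for SUCLG1 to 1.17 for CS and 2.25 for OGDH. Spearman's rho between it and the log2 fold change was 0.72 over the 9 members and 0.19 over 11755 genes, as a description across genes, which are not independent replicates. With the length trend removed the 5 down-regulated members were still called, and SUCLG1 had a log2 fold change of -1.02.

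Some genes outside the citrate cycle lay closer to the mean course of the members than any member did. With 10286 candidates against 9 members this could be foreseen, and it is given as a description only. Among 10286 genes outside the lists used here that had a gene symbol and a mean FPKM of 1 or more, the nearest by Euclidean distance of centred log2(FPKM + 1) values over the 6 libraries were VSIG10L (distance 0.0467), PPP1CA, a catalytic subunit of protein phosphatase 1 (0.0473), ZNF705A (0.0602), RPE, an epimerase of the pentose phosphate pathway (0.0608), and the cell cycle kinase gene CDK4 (0.0731). DLST (0.139) and SUCLA2 (0.158) were the nearest members and OGDH (0.822) the farthest. PPP1CA, for example, had an FPKM of 65.1, 69.4 and 70.0 in FT_1 to FT_3 and of 101, 110.4 and 98.3 in WT_1 to WT_3.

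The remaining enzymes and subunits of the cycle were read beside the members. Of the 7 reported here, 6 were down-regulated, where 18.9% of all genes tested were lower. Their median log2 fold change, over all 7, was -0.93. SDHD (-1.13), SDHA (-0.98), DLD (-0.98), SUCLG2 (-0.93), SDHC (-0.81) and IDH3B (-0.67) were lower. SDHB had a log2 fold change of -0.21 (95% interval -0.60 to 0.17), or -0.06 without FT_1 (-0.21 to 0.09). Without FT_1 the number down-regulated was also 6, where 31.5% of all genes were lower. IDH3G and OGDHL were not analysed here.

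Genes that bring pyruvate into the cycle were counted beside all genes tested, of which 18.9% were lower and 20.1% higher. Of 11 genes 3 were down-regulated, the pyruvate carrier gene MPC2 (-1.43) and the pyruvate dehydrogenase genes DLAT (-1.06) and PDHB (-1.04), and 1 was up-regulated, the phosphatase gene PDP2 (0.79). Lipoic acid is the cofactor that DLST and DLAT carry, and of 4 genes of its synthesis and transfer 2 were down-regulated, GCSH (-1.998) and LIAS (-0.79). The median was -0.11 for the pyruvate genes and -0.58 for the lipoylation genes, or -0.27 and -1.01 without FT_1. Without FT_1 the pyruvate genes had 6 lower and 2 higher, and 3 lipoylation genes were lower, where 31.5% of all genes were lower and 30.6% higher.

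Cytosolic counterparts of cycle enzymes and genes of side reactions were counted in the same way, beside 18.9% of all genes lower and 20.1% higher. Of the 6 cytosolic genes 3 were down-regulated, MDH1 (-1.53), ACO1 (-0.72) and the aspartate aminotransferase gene GOT1 (-0.61). The median of the 6 was -0.60, or -0.37 without FT_1. Of the 10 genes that fill or drain the cycle 3 were down-regulated, GLUD1 (-1.42), PCK2 (-0.63) and ME2 (-0.40), and 1 was up-regulated, the malic enzyme gene ME3 (1.46). The median of these 10 was -0.28, or -0.43 without FT_1. Without FT_1 the cytosolic list had 5 lower, and the list of side reactions 5 lower and 2 higher. In that fit 31.5% of all genes were lower and 30.6% higher.

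**Figure D4:**
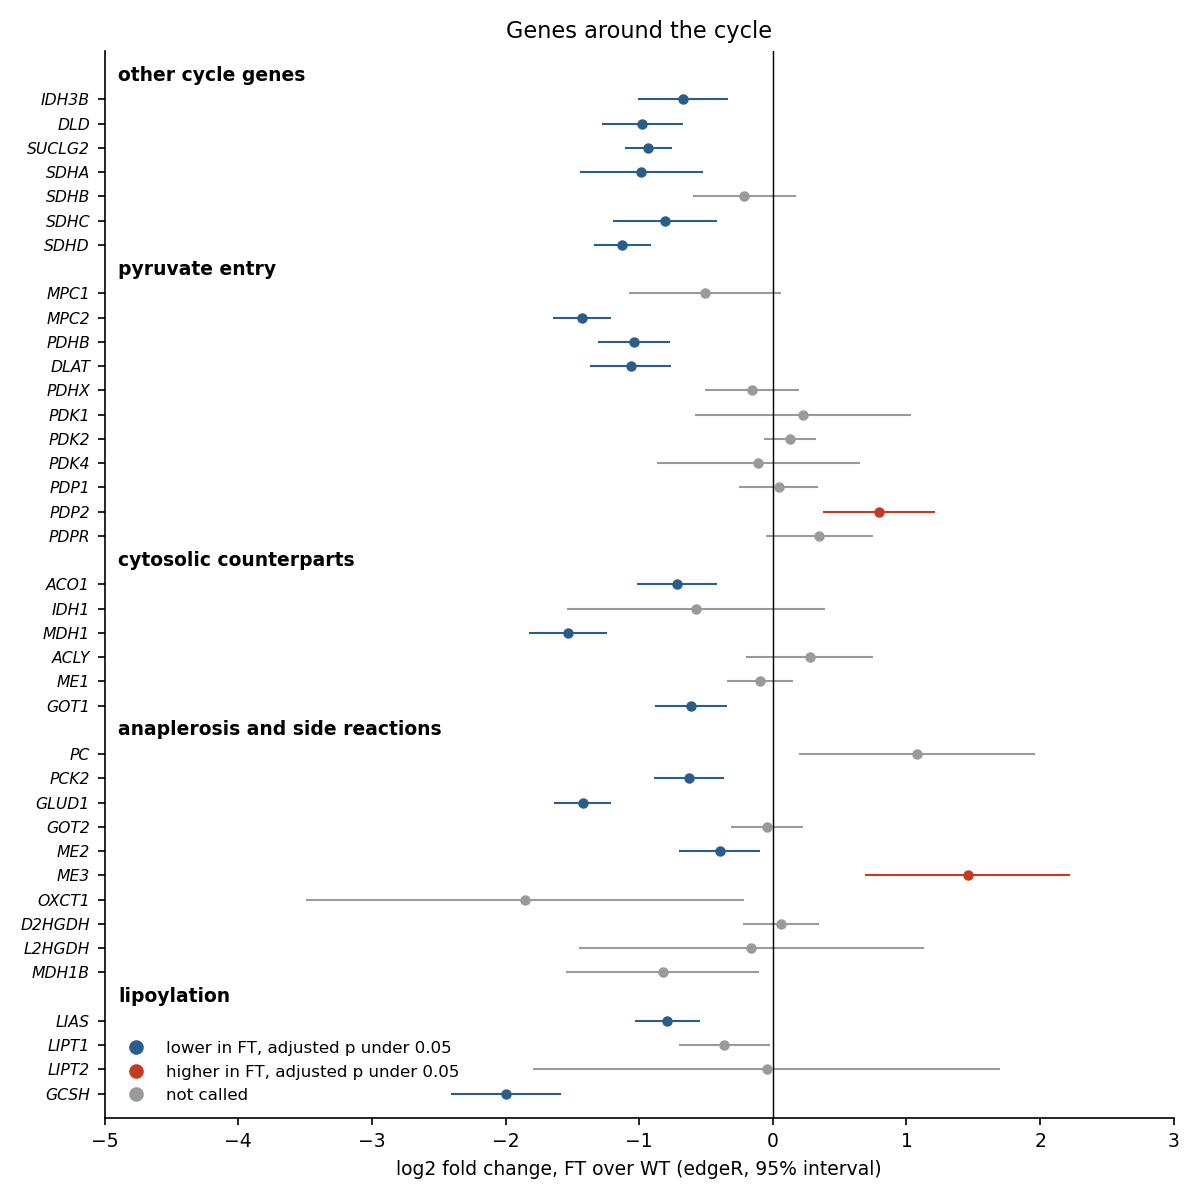
Log2 fold change of FT over WT cells (edgeR, 95% intervals) for the tested genes of the 5 lists around the members, with genes lower in FT cells in blue, higher in red and not called in gray. Most of the called genes lie to the left of 0, and PDP2 and ME3 lie to the right.

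Reference genes give a scale for these values. Of 6 genes commonly used for normalization, 2 were down-regulated, PPIA (-1.07) and YWHAZ (-0.92), where 18.9% of all genes tested were lower. The number without FT_1 was 4, where 31.5% of all genes were lower. RPLP0, the housekeeping gene of the study's RT-qPCR, had an FPKM of 2615, 1576 and 1555 in FT_1 to FT_3, against 2413, 2487 and 2659 in WT_1 to WT_3. FT_1 lay within the WT values and the other FT libraries below them. Its log2 fold change was -0.24 (95% interval -0.78 to 0.30, adjusted p = 0.42), and -0.52 without FT_1.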

How the data were processed

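Poly(A) RNA of 6 bEF libraries was sequenced in pairs of reads. Mapping (HISAT) and quantification (StringTie, edgeR) are the authors' own. The submitters' processing notes name HISAT2 2.0, StringTie 1.3.0 and Bowtie 0.12.2. The raw counts per gene were deposited as whole numbers without normalization. The FPKM values the authors deposited are scaled by gene length and library total. Genes off chromosomes 1 to 29 were not analysed here.

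Counts were tested with edgeR 4.0.16 (R 4.3.3; quasi-likelihood test, TMM scaling, filterByExpr with a minimum count of 10), FT against WT, with Benjamini-Hochberg adjustment over all genes tested and a threshold of 0.05. Standard errors came from the fold change and its F statistic, and intervals from the same degrees of freedom. limma 3.58.1 on log2(FPKM + 1), with a filter at a mean FPKM of 0.5, and DESeq2 1.42.0 on counts were alternatives, as were other scalings, filters and a pseudocount of 0.1, a length trend, a replicate block and leaving out each library. limma without FT_1 and the ratios of all gene pairs were added after the data were seen. Fold changes on the log2(FPKM + 1) scale understate the change of low genes. Scaled counts are CPM after TMM. Ratios were tested by exact permutation (two-sided). The edgeR and limma steps were tested on simulated data.

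Named genes are the members, all other cycle genes reported, up to 3 called genes per direction of each further list, RPLP0 and the 5 nearest genes. Some genes of the lists are not reported here. VIM, COL1A1, PDGFRB, DCN, LUM, CDH1, KRT8, KRT18, EPCAM, WT1, PLIN1, LPL, ADIPOQ, PCNA, TOP2A, PECAM1, CD14, MYF5, STYXL1 and IDH1 were named outside this rule after their values were seen. The members and lists were chosen with earlier results of these data known. P-values measure the spread between these fetuses, 1 culture each.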

Additional observations from a re-analysis of the deposited data

How the results depend on the processing

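The 5 members lower in FT cells were lower in all 18 alternatives, with an adjusted p of at most 0.0421 for DLST, 0.0138 for SUCLG1, 0.044 for SUCLA2, 0.0139 for FH and 0.0274 for MDH2. The median log2 fold change of the members ran from -0.60 to -0.40. The number of members higher ranged from 0 to 2 when 1 library was left out, with 2 without FT_1. Members past the methods' threshold numbered 1 with the length trend removed and 1 to 2 with a library left out. With CS the sign reversed to -0.091 with library totals only, to -0.12 with limma at a pseudocount of 1 or 0.1 or without a filter, and it ran from -0.049 without FT_3 and -0.016 without FT_2 to 0.24 without FT_1. The cause was not tested.

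Over all genes, leaving out 1 library gave 1531 to 4337 lower and 1516 to 4215 higher, the highest without FT_1 and the lowest without WT_1. limma without a filter gave 1744 higher. limma without FT_1 gave 5118 lower and 2928 higher among 12031 genes, and called 7 pyruvate genes, 5 cytosolic genes, 8 genes of side reactions and 4 reference genes. With 1 library left out, edgeR called 3 to 8 pyruvate genes, 3 to 5 cytosolic genes, 2 to 7 genes of side reactions and 2 to 4 reference genes.

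The sample labels do not say that replicate numbers pair the fetuses. Deviations of same-numbered libraries correlated at -0.00, -0.02 and 0.02, and 1 of 3 FT libraries correlated best with its own number. With 3 libraries a group and FT_1 apart, these correlations cannot exclude a pairing. With the replicate number as a block, edgeR called 5 members lower, 1838 genes higher and 1741 lower, and changed no call of a member.

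With 3 fetuses a group and 1 of them apart, the intervals of CS, OGDH and IDH3A are wide, and small differences there could not be detected. The groups also differ in markers of other cells and of division, which cannot be told apart from the genotype. The breed and sex of the FT fetuses were not compared, and RNA levels say nothing of enzyme activity.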
